A study of Homo sapiens with 12 samples.

Results

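The 5 guide-strand microRNAs of the paralogous miR-23a/27a/24-2 and miR-23b/27b/24-1 clusters were followed across all 12 arrays of the study: hsa-miR-23a, hsa-miR-27a, hsa-miR-23b, hsa-miR-27b and hsa-miR-24, called miR-23a and so on below. They were chosen by name, as the array names that equal these guide strands, and are 5 of the 851 human names on the array. Total RNA came from SUM159, a triple-negative breast cancer cell line of mesenchymal character, and was hybridised to 1-colour Agilent human microRNA arrays. The cells stably carried a lentiviral pLKO.1 vector with either a short hairpin RNA (shRNA) against Dicer or a scrambled control shRNA from the same backbone, and were kept for 24 h in 0.5 mM metformin, a biguanide used against diabetes, or in PBS as vehicle. The 4 groups were Dicer shRNA with metformin, control shRNA with metformin, Dicer shRNA with vehicle and control shRNA with vehicle, with 3 arrays each, and every group therefore carried an integrated shRNA vector. The titles call the replicates biological, but no label says that they came from separate cultures, so p-values measure the spread between these arrays only. Groups were taken from the titles and the treatment labels. The source names of the metformin samples disagree with both, since they call the control shRNA metformin samples untreated and the Dicer shRNA metformin samples a treated control.

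MicroRNAs are cut from a hairpin in a long transcript by Drosha in the nucleus and from the exported hairpin by Dicer in the cytoplasm. One strand of the resulting duplex, the guide, is kept by an Argonaute protein and pairs with messenger RNAs through its seed. The miR-23/27/24 hairpins lie close together at each locus, so the members of a cluster can be made from a common primary transcript. In other human cells miR-23a and miR-23b are known to repress glutaminase, miR-27a and miR-27b the transcription factor FOXO1, and miR-24 the histone H2AX and cell cycle regulators such as E2F2.

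The mature sequences are shown because members of a pair are nearly identical. They are given 5′ to 3′ from RefSeq (GRCh38.p14), which held all 5 members, with the seed (bases 2 to 8) in capitals.
miR-23a: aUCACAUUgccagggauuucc
miR-23b: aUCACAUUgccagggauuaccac
miR-27a: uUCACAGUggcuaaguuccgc
miR-27b: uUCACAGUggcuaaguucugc
miR-24: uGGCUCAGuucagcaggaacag

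The 5 members fall into 3 seed groups: miR-23a with miR-23b, miR-27a with miR-27b, and miR-24 by itself. Counting from 1 at the 5′ end, miR-23a and miR-23b are identical at 20 of the 21 bases they share and differ by U19A, and miR-23b runs 2 bases further at its 3′ end. The miR-27 pair is likewise identical at 20 of 21 bases and differs by C19U. The array files hold no probe sequences, so whether a probe also took up the paralog was not tested.

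The first cluster spans 373 bases at chr19:13836287-13836659 on the minus strand, inside the long non-coding host gene MIR23AHG. Its mature strands lie at chr19:13836595-13836615 (miR-23a), chr19:13836447-13836467 (miR-27a) and chr19:13836289-13836310 (miR-24, from the MIR24-2 hairpin). The other cluster spans 881 bases at chr9:95085208-95086088 on the plus strand, inside the protein-coding gene AOPEP. Its mature strands lie at chr9:95085265-95085287 (miR-23b), chr9:95085505-95085525 (miR-27b) and chr9:95086064-95086085 (miR-24, from the MIR24-1 hairpin). The hairpins of miR-24 are shown because they differ in stem and loop and yet hold the same mature strand, given in capitals.
MIR24-2: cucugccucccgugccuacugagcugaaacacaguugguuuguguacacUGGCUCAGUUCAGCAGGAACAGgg
MIR24-1: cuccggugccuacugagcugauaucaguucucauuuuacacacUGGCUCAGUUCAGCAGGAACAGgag
The array has 1 name for this strand, so the miR-24 signal is the sum of both loci and cannot be divided between them.

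Between 130 and 204 human names were detected on an array, 98 on all 12 arrays and 263 on at least 1. One name, miR-923, took 77.7% to 84.3% of the human signal on every array. Both vehicle groups were on one slide and both metformin groups on the other, so each knockdown comparison lay within a slide, whereas an effect of metformin and one of the slide cannot be told apart. The targeted gene could not be checked, since the array carries no probe for the Dicer messenger RNA. None of the 5 epithelial markers (the miR-200 family) was detected on any array. Among markers of other cells, liver and neural names were undetected, and 2 of 7 blood markers (miR-223 and miR-486-5p) were detected on the 3 control shRNA metformin arrays alone, where they summed to 15.2 to 20.4 signal units. The muscle markers miR-133a and miR-133b, 2 of 4 listed, summed to 7.74 to 21.1 units on Dicer shRNA metformin arrays, 24.9 to 29.9 on control shRNA metformin arrays, 0 to 6.52 on Dicer shRNA vehicle arrays and 0 to 4.41 on control shRNA vehicle arrays. The part of these signals in the results below was not tested.

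Values are total gene signals scaled to the 75th percentile of the 98 microRNAs detected on all arrays. An array on which a name was not detected was set to a floor of 3.01 units (1.59 on the log2 scale). Differences and adjusted p-values come from limma fitted to 208 microRNAs, those with 3 of 3 arrays detected in 1 or more groups. A call means an adjusted p under 0.05. The SE of a microRNA rests on its spread pooled over all groups. For miR-27a, miR-23b and miR-27b that includes metformin arrays at the floor, also in the comparison under vehicle. In bulk RNA, fewer cells that express a microRNA and less of it per cell cannot be told apart.

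**Figure D1:**
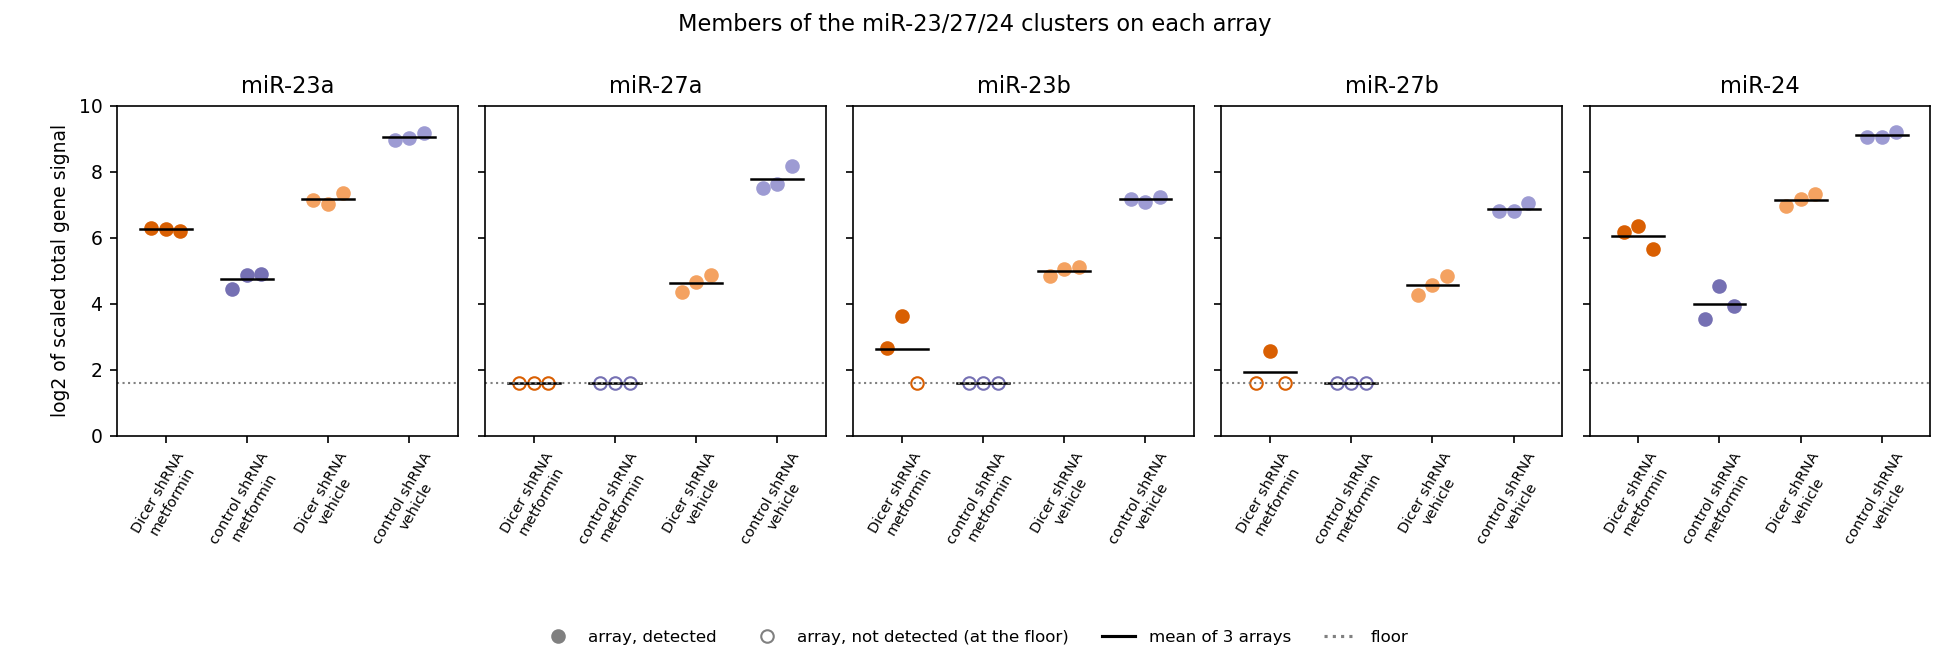
Log2 of the scaled total gene signal of each member on each of the 12 arrays, with the 4 groups on the x axis, 1 point per array and a line at the mean of 3 arrays. Open points are arrays without detection, set to the floor (dotted line at 1.59); miR-23a and miR-24 were detected on all 12 arrays, and the other members lost detection on metformin arrays.

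The first comparison asked how far the signal of each member differed between Dicer shRNA and control shRNA in vehicle-treated cells. All 5 members fell and none of the groups overlapped, with miR-27a dropping furthest.

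Within the chromosome 19 cluster, hsa-miR-23a had 141, 131 and 162 units on the Dicer shRNA vehicle arrays, against 498, 522 and 575 on the control shRNA vehicle arrays. Every Dicer shRNA array was far below every control array, at a mean of 144 ± 15.9 against 532 ± 39.7 units (SD, n = 3 each). This is a log2 difference of -1.88 ± 0.14 (SE; limma adjusted p = 1.4e-06), or 3.69-fold lower. hsa-miR-27a had 20.4, 25.1 and 29.0 units with Dicer shRNA, against 182, 197 and 286 with control shRNA. The third control array stood above the other two, which put the coefficient of variation of that group at 25.4%, while the scanner software gave an error of 7.12% to 7.19% for the same signals. The difference was nonetheless the largest of the 5 members in this comparison, at -3.15 ± 0.17 on the log2 scale (adjusted p = 1.3e-07), or 8.85-fold lower. Its SE and p-value also draw on the metformin groups, where its log2 SD was 0 at the floor. Under vehicle that SD was 0.25 with Dicer shRNA and 0.35 with control shRNA. So its p-value cannot be ranked against those of the other members.

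Within the chromosome 9 cluster, hsa-miR-23b had 28.7, 33.0 and 34.5 units on the Dicer shRNA vehicle arrays, against 144, 135 and 149 on the control shRNA vehicle arrays. The Dicer shRNA values lay close together and well below the controls, a difference of -2.16 ± 0.38 (adjusted p = 0.00068), or 4.45-fold lower. This SE draws on the Dicer shRNA metformin group, with detection on 2 of 3 arrays and a log2 SD of 1.02. Under vehicle the SD was 0.14 with Dicer shRNA and 0.07 with control shRNA. hsa-miR-27b had 19.1, 23.8 and 28.6 units with Dicer shRNA, against 111, 112 and 131 with control shRNA, which gave -2.32 ± 0.25 (adjusted p = 2.8e-05), or 5.01-fold lower. hsa-miR-24, which both clusters encode, had 125, 145 and 160 units with Dicer shRNA, against 526, 530 and 591 with control shRNA. Its difference of -1.95 ± 0.25 (adjusted p = 8.4e-05) was 3.85-fold and close to that of miR-23a.

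Thus 5 of 5 members were called lower, where 38.0% of all 208 tested microRNAs were (59.6% in either direction). The groups did not overlap in the lower direction for 5 of 5 members, against 39.4% of all tested. The members' median difference was -2.16, beside 0 over all tested microRNAs. Ranked from the most lowered of the 208, miR-27a was at place 9, miR-27b at 21, miR-23b at 26, miR-24 at 30 and miR-23a at 32. What remained in Dicer shRNA cells, as a share of the control level on the mean log2 scale, was 27.1% for miR-23a, 26.0% for miR-24, 22.4% for miR-23b, 19.97% for miR-27b and 11.3% for miR-27a. All 5 calls held under each of the 27 other settings tried, in which miR-23a ranged over -3.08 to -1.13 and miR-27a over -4.34 to -2.39. miR-23b ranged over -3.35 to -1.40, miR-27b over -3.52 to -1.57 and miR-24 over -3.14 to -1.19. The limma adjusted p of miR-23b rose to 0.048 in these settings, just under the threshold, and that of miR-27b to 0.010.

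Control features on the same arrays moved too, although what those named hur and mr_1 measure is not given in the sources used here. Of the 5 features named hur in the files, 4 were detected on all arrays, and all 4 were lower with Dicer shRNA than with control shRNA under vehicle, by a median log2 difference of -0.81 (-1.22 to -0.17), while another control feature, mr_1, differed by -0.80. The 10 viral microRNA names detected on all arrays lay the other way, all higher, at a median of 0.87. When the arrays were scaled to the geometric mean of the hur features, a setting chosen after seeing the data and limited by the same unknown, the members' differences shrank but stayed called, at -1.13 for miR-23a, -2.39 for miR-27a, -1.40 for miR-23b, -1.57 for miR-27b and -1.19 for miR-24. The part of the hur shift in the members' values was otherwise not tested.

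**Figure D2:**
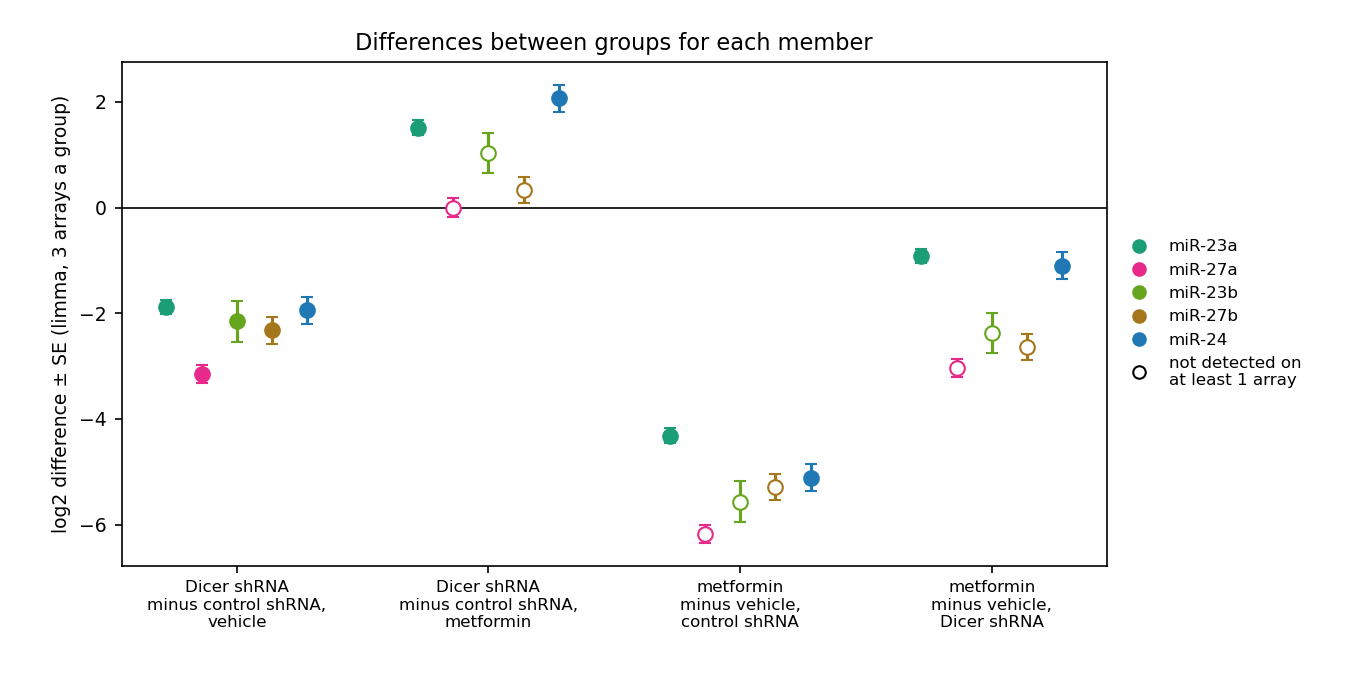
Log2 differences with standard errors (limma, 3 arrays a group) for each member in the 4 comparisons on the x axis. Filled points were detected on all arrays of both groups; all 5 members lie below 0 for Dicer shRNA under vehicle and for metformin in both lines, and only miR-23a (1.51) and miR-24 (2.07) lie above 0 with a call for Dicer shRNA under metformin. With scaling to the hur features miR-23a would lie at -0.21 for Dicer shRNA under metformin and at 0.0033 for metformin in Dicer shRNA cells.

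Because members of a cluster can come from a common transcript, their differences were set against each other on the vehicle arrays. The per-array log2 ratio of 2 members was compared between the lines for 8 pairs by a two-sided exact permutation test. With 3 arrays against 3 it cannot give a p below 0.1, so no pair could pass the threshold. The ratio of 2 probes says nothing of their relative abundance, and only its change is read here.

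In the chromosome 19 cluster, the drop of miR-27a was larger than those of both its partners on these arrays, a difference that the test could not call. The difference in change was 1.26 log2 units between miR-23a and miR-27a and -1.20 between miR-27a and miR-24, in both cases with no overlap between the lines (exact p = 0.1, adjusted over 8 pairs 0.133). Between miR-23a and miR-24 it was 0.06 (exact p = 0.7), and the ratio lay at 0.17, -0.15 and 0.02 on the Dicer shRNA arrays, against -0.08, -0.02 and -0.04 on the control arrays, so the groups overlapped. The drop of miR-27a was also larger than that of its paralog miR-27b, with a difference in change of -0.82 (exact p = 0.1, adjusted 0.133). Its ratio to miR-27b was 0.02 to 0.10 on the Dicer shRNA arrays, against 0.71 to 1.13 on the control arrays. The direction of these miR-27a differences held with quantile normalization, an added offset of 16 and the series matrix values, in which they shrank to as little as 0.64 for miR-23a against miR-27a and -0.21 for miR-27a against miR-24 and lay between -0.94 and -0.77 for miR-27a against miR-27b.

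In the chromosome 9 cluster the differences were smaller. They were 0.17 between miR-23b and miR-27b (exact p = 0.3, adjusted 0.343), -0.21 between miR-23b and miR-24 and -0.38 between miR-27b and miR-24 (exact p = 0.1, adjusted 0.133 each). Between the paralogs miR-23a and miR-23b the difference was 0.27 (exact p = 0.1, adjusted 0.133). The last 3 changed sign under all 3 of those settings, with quantile normalization at 0.74, 0.56 and -0.31, so no direction is given for them.

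**Figure D3:**
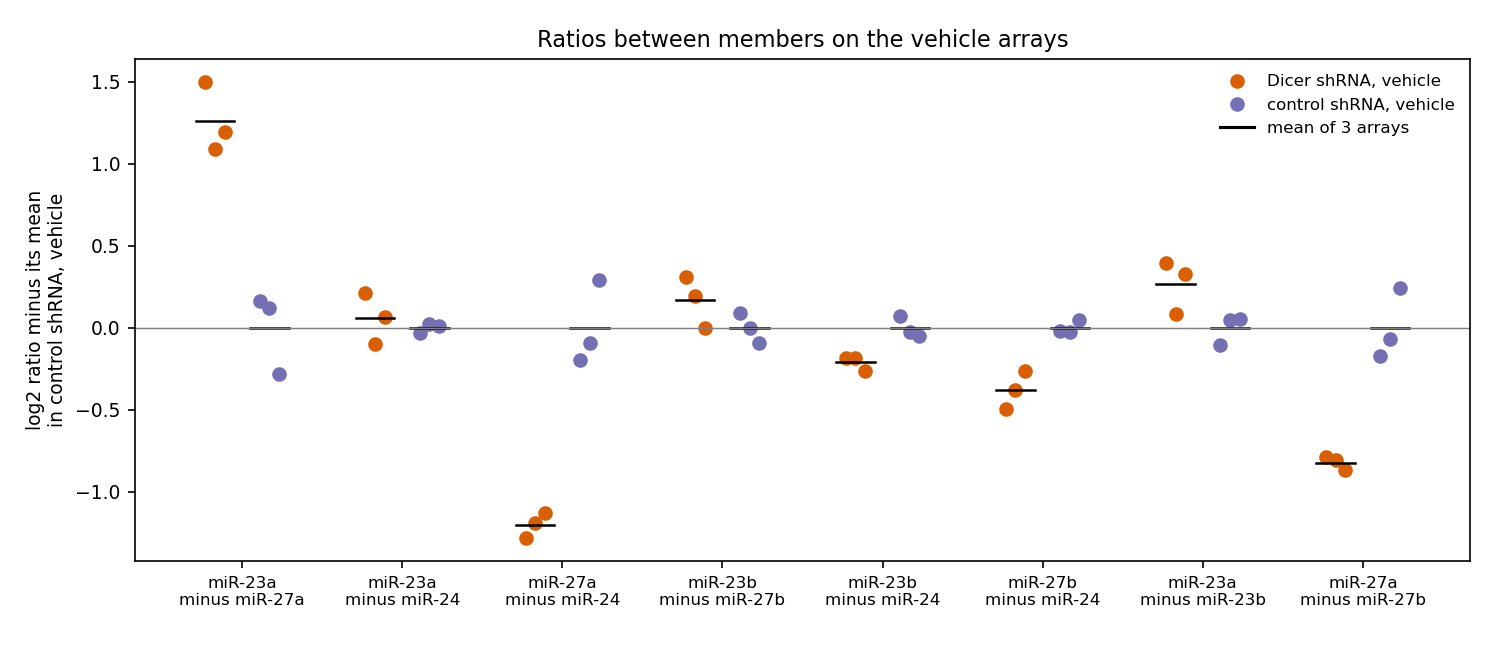
Per-array log2 ratios of 8 pairs of members on the 6 vehicle arrays, each shown minus its mean over the control shRNA arrays, with 1 point per array and a line at the mean of 3. The pairs with miR-27a lie furthest from 0 on the Dicer shRNA arrays (1.26, -1.20 and -0.82 on average), and miR-23a with miR-24 lies at 0.06.

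On the metformin arrays miR-23a and miR-24 were higher with Dicer shRNA than with control shRNA in the scaling used, whereas with scaling to the hur features neither was called and miR-23a changed sign. miR-27a was not detected in either line.

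miR-23a had 78.5, 76.8 and 73.0 units on the Dicer shRNA metformin arrays, against 21.8, 29.2 and 29.8 on the control shRNA metformin arrays. The Dicer shRNA values were tightly grouped and all above the controls, at 76.1 ± 2.79 against 26.9 ± 4.49 units (SD, n = 3 each), a log2 difference of 1.51 ± 0.14 (limma adjusted p = 9.8e-06), or 2.85-fold higher. miR-24 had 71.3, 82.3 and 50.1 units with Dicer shRNA, against 11.5, 23.1 and 15.1 with control shRNA. The lines did not overlap here either, though both spread more widely, with 67.9 ± 16.4 against 16.5 ± 5.96 units. The difference of 2.07 ± 0.25 (adjusted p = 9.7e-05) was 4.19-fold.

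The members with lower signals gave little to compare. miR-23b was detected at 6.35 and 12.3 units on 2 of 3 Dicer shRNA metformin arrays and on none of the control shRNA metformin arrays, and its difference of 1.04 ± 0.38 did not pass (adjusted p = 0.057). It was called under 5 of 27 other settings, among them the fit without the Dicer shRNA metformin array on which it was not detected, where it was 1.58 (adjusted p = 0.00046). miR-27b was detected at 5.97 units on 1 Dicer shRNA array and on no control array (0.33 ± 0.25, adjusted p = 0.335). miR-27a was undetected on all 6 metformin arrays, so it has no difference there.

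In all, 2 of 5 members were called higher, where 13.9% of the 208 tested microRNAs were called higher and 38.9% in either direction. The same 13.9% of all tested did not overlap in the higher direction, beside 2 of 5 members. The members' median difference of 1.04, beside -0.24 over all tested, is that of miR-23b and rests on arrays at the floor. The calls for both members depended on the scaling. The 4 hur features were all higher with Dicer shRNA under metformin, by a median of 1.95 (0.39 to 2.60), and after scaling to them miR-23a differed by -0.21 (adjusted p = 0.247) and miR-24 by 0.35 (adjusted p = 0.067), whereas miR-23b was called at 1.11 (adjusted p = 0.034). That scaling moved the median of the 98 microRNAs detected on all arrays to -2.05 in this comparison, from -0.33, and its calls over all tested were 13 higher and 138 lower, beside 29 and 52. The viral names differed by a median of -0.49, with 9 of 10 lower.

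In control shRNA cells the members were far lower on the metformin arrays than on the vehicle arrays. miR-23a stood at 26.9 ± 4.49 units with metformin against 532 ± 39.7 with vehicle (SD, n = 3 each). This was 19.9-fold lower, a log2 difference of -4.32 ± 0.14 (limma adjusted p = 7.7e-10), and left 5.02% of the vehicle level. miR-24 stood at 16.5 ± 5.96 units with metformin against 549 ± 36.2 with vehicle, 34.6-fold lower (-5.11 ± 0.25, adjusted p = 1.9e-08), which left 2.89%. The remaining members were detected on no metformin array, against all 3 vehicle arrays. Only a fold to a set level can be given, taken per array at the higher of the floor and the lowest detected signal. The detection limit of these probes is not known, so the real folds may be smaller or larger. With that level, miR-27a was 72.2-fold lower (adjusted p = 4.2e-10), miR-23b 47.4-fold (adjusted p = 2.5e-07) and miR-27b 39.1-fold (adjusted p = 1.6e-08).

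All 5 members were thus called lower, where 40.4% of tested microRNAs were called lower and 88.0% in either direction. Their groups did not overlap, as for 40.4% of all tested in the lower direction. For miR-27a, miR-23b and miR-27b, which entered the fit only through the vehicle groups, both outcomes followed from the filter and the floor. Only the calls of miR-23a and miR-24 compare measured levels. The members' median was -5.29, beside 0.52 over all tested, and is that of miR-27b, set by the floor. The calls of miR-23a and miR-24 held under the 27 other settings, but the sizes moved with the scaling. The hur features were lower with metformin by a median of -3.84 (-5.03 to -0.86), and mr_1 by -3.19. After scaling to the hur features, miR-23a differed by -0.92 and miR-24 by -1.72. The viral names were all higher, at a median of 1.38. Slide and metformin cannot be told apart in any of these values.

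In Dicer shRNA cells the members were again lower with metformin in the scaling used, though not miR-23a with scaling to the hur features. miR-23a stood at 76.1 ± 2.79 units with metformin against 144 ± 15.9 with vehicle (SD, n = 3 each), 1.89-fold lower (-0.92 ± 0.14, limma adjusted p = 0.00091). miR-24 stood at 67.9 ± 16.4 units with metformin against 143 ± 17.3 with vehicle, 2.14-fold lower (-1.10 ± 0.25, adjusted p = 0.010). In Dicer shRNA metformin cells they lay at 14.3% and 12.1% of their level in control shRNA vehicle cells, above the 5.02% and 2.89% in control shRNA metformin cells.

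miR-27a, at 24.8 ± 4.296 units with vehicle, was undetected on all 3 metformin arrays and 8.16-fold lower with those arrays at the floor (limma adjusted p = 1.9e-06). miR-23b was detected on 2 of 3 metformin arrays and on all 3 vehicle arrays (-2.37 ± 0.38, adjusted p = 0.0014). miR-27b was detected on 1 of 3 metformin arrays (-2.64 ± 0.25, adjusted p = 4.6e-05). The last 2 differences contain arrays at the floor, and their sizes depend on it.

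Here 5 of 5 members were called lower, where 18.3% of tested microRNAs were called lower and 24.5% in either direction, and 20.7% did not overlap in the lower direction. The calls of miR-27a, miR-23b and miR-27b rest on metformin arrays at the floor, and these members entered the fit only through the vehicle groups. The members' median was -2.37, beside 0 over all tested, and is that of miR-23b. The calls of miR-23a and miR-24 were lost under several settings. With quantile normalization they were -0.72 (adjusted p = 0.068) and -0.86 (adjusted p = 0.101), and with the authors' series matrix values -0.45 (adjusted p = 0.059) and -0.61 (adjusted p = 0.123). The hur features were lower with metformin by a median of -0.999 (-1.38 to -0.30), and after scaling to them miR-23a differed by 0.0033 (adjusted p = 1) and miR-24 by -0.18 (adjusted p = 0.414). miR-24 was also not called with the viral scaling (adjusted p = 0.061), with no filter on dim names (adjusted p = 0.091) or with only these 6 arrays in the fit (adjusted p = 0.0503), and miR-23b not in that smaller fit (adjusted p = 0.067). The calls of miR-27a and miR-27b held under all 27. Both were set by undetected metformin arrays, so this says nothing of how stable they are.

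In order of level, miR-23a and miR-24 were lowest in control shRNA cells with metformin, then in Dicer shRNA cells with metformin, then in Dicer shRNA cells with vehicle, and highest in control shRNA cells with vehicle. Each neighbouring step passed the limma test in the scaling used, and the 2 lower steps were lost in the settings named above. miR-27a, miR-23b and miR-27b had the same order among the groups where they were detected on all arrays, with both metformin groups at or near the floor. Between the metformin groups none of them was called in the scaling used, though miR-23b was called under 5 of 27 other settings.

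**Figure D4:**
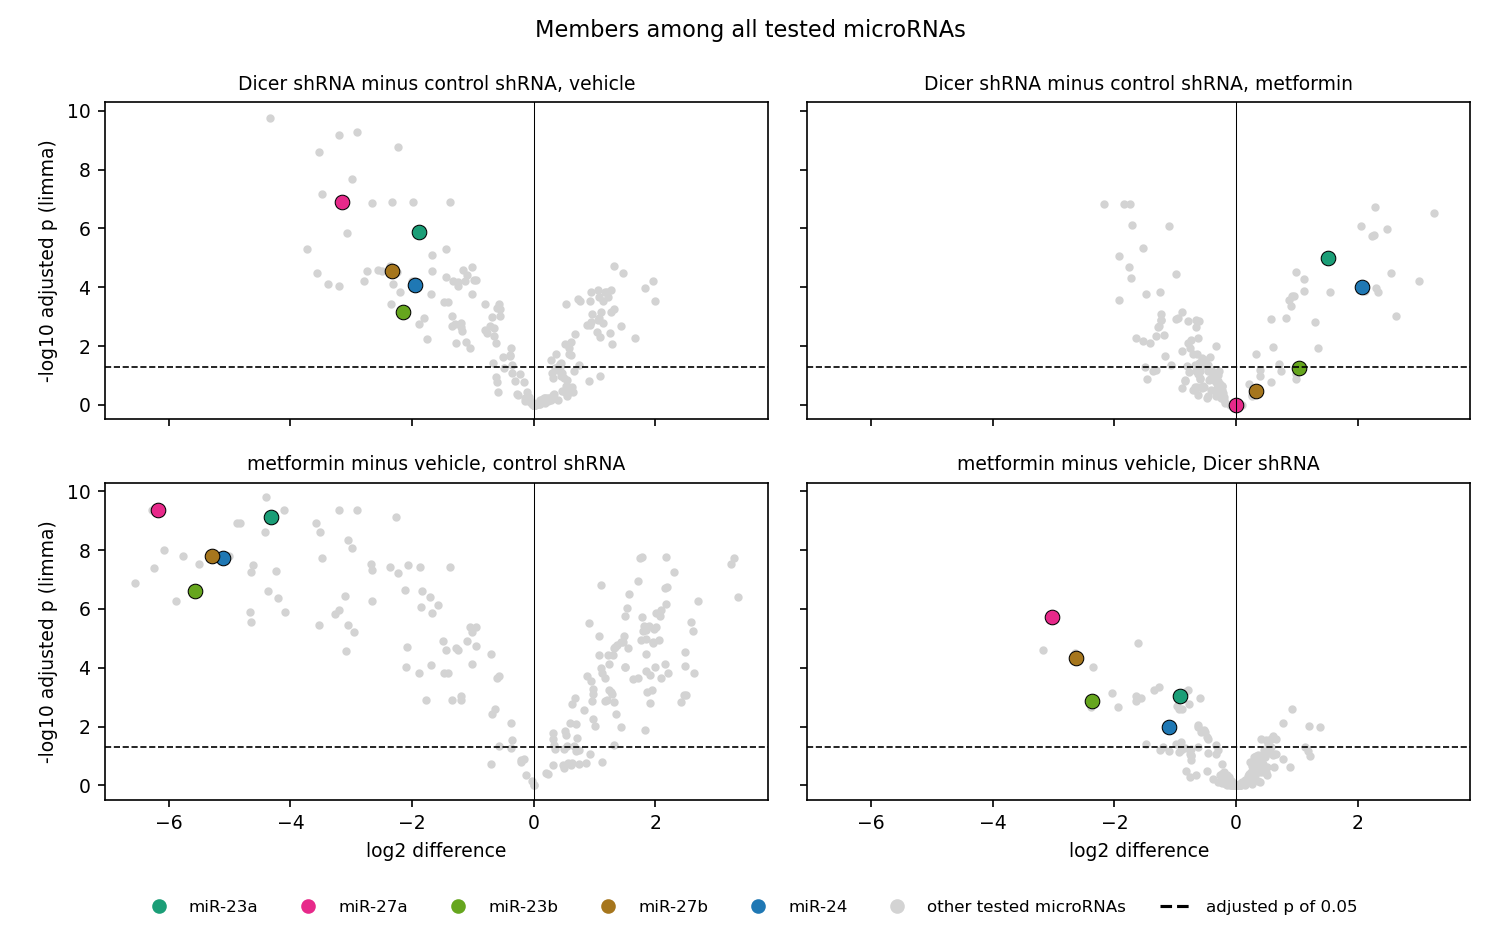
Log2 difference against -log10 of the adjusted p (limma) for all 208 tested microRNAs in 4 comparisons, with the members in colour and the dashed line at an adjusted p of 0.05. All 5 members are left of 0 and above the line under vehicle and for metformin in both lines. For metformin, the positions of miR-27a, miR-23b and miR-27b rest on arrays at the floor. For Dicer shRNA under metformin, miR-23a and miR-24 lie above the line to the right and the other members below it. Both calls were lost with scaling to the hur features.

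The difference between the 2 knockdown effects was tested as an interaction, the change with Dicer shRNA under metformin minus that under vehicle. It was 3.40 ± 0.19 for miR-23a (limma adjusted p = 2.2e-07) and 4.01 ± 0.36 for miR-24 (adjusted p = 5.0e-06), the members measured in all 4 groups. For miR-23b it was 3.19 ± 0.54 (adjusted p = 0.00045) and for miR-27b 2.65 ± 0.35 (adjusted p = 9.3e-05), both leaning on arrays at the floor. Neither was detected on a control shRNA metformin array. Without the 1 metformin array that detected miR-27b, its value was 2.32, its vehicle difference with the sign turned. No interaction was measured for miR-27a, which was at the floor on every metformin array, so that its fitted value is only its vehicle difference with the sign turned. Of the others, miR-23a and miR-24 were called higher from measured levels, and miR-23b and miR-27b with arrays at the floor. Over all tested microRNAs, 37.0% were called higher and 76.4% in either direction. The hur features had a median interaction of 2.84, and after scaling to them miR-23a stood at 0.92 and miR-24 at 1.54, both still called. The comparisons share arrays, so their values for a member are not independent of each other.

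Whether miR-23a and miR-24 kept the same ratio in every group was examined after their values had been seen. The log2 ratio was 0.19 ± 0.33 with Dicer shRNA and metformin, 0.75 ± 0.36 with control shRNA and metformin, 0.01 ± 0.16 with Dicer shRNA and vehicle and -0.05 ± 0.03 with control shRNA and vehicle (SD, n = 3 each). Only the control shRNA arrays differed without overlap, at 0.34 to 0.99 with metformin against -0.08 to -0.02 with vehicle (difference 0.80, exact permutation p = 0.1, the smallest possible, adjusted over 4 comparisons 0.4). At these levels miR-24 had a scanner error of 10.5% to 18.1% on the control shRNA metformin arrays, against 7.13% to 7.15% on the control shRNA vehicle arrays.

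Other products of the same loci were mostly below detection. Of the 6 passenger strands of these hairpins, which are normally discarded after Dicer cleavage, only miR-23a* could be tested, being detected on 10 arrays. It was called in none of the comparisons in the main setting. Its differences were 0.28 ± 0.48 for Dicer shRNA under vehicle (limma adjusted p = 0.689), 0.98 ± 0.48 under metformin (adjusted p = 0.132), -0.70 ± 0.48 for metformin in control shRNA cells (adjusted p = 0.186) and 0.01 ± 0.48 in Dicer shRNA cells (adjusted p = 1). Under metformin the lines did not overlap, as for 13.9% of all tested in the higher direction. The call changed there under 1 of 27 other settings, and under 2 of 27 for metformin in control shRNA cells. So miR-23a* passed no threshold in the main setting where its guide strand fell, and the difference between the strands was not tested. miR-27b* was detected on 1 array and the other 4 passenger strands on none.

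The genome neighbours gave the following. On chromosome 19, 38.0 kb from the cluster and on the other strand, miR-181c was detected on no array and miR-181d on 3, so neither was tested. On chromosome 9, 906 to 909 kb away, let-7a fell by 3.56 on the log2 scale (detected on 2 of 3 Dicer shRNA arrays) and let-7f by 3.08 (1 of 3) with Dicer shRNA under vehicle. Both were called lower, as were 38.0% of all tested. Both entered the fit only through the control shRNA vehicle group and have Dicer shRNA arrays at the floor, so these sizes depend on it. In the metformin comparisons both were set largely by the floor. let-7d was detected on 1 array only. let-7a is also encoded elsewhere in the genome, so its signal is not that of this locus alone. Other loci for let-7f were not examined, so its signal cannot be assigned to this locus either.

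miR-128 shares letters with the miR-27 seed, which it carries at its first 7 bases, in capitals.
miR-128: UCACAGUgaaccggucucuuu
It was detected on the 3 control shRNA vehicle arrays alone, with a fitted difference of -0.94 ± 0.11 (adjusted p = 5.6e-05) for Dicer shRNA under vehicle that rests on the floor.

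Other polycistronic clusters were set beside the members for scale. With Dicer shRNA under vehicle all 6 miR-17/92 members, all 3 of miR-106b/25 and both of miR-221 and miR-222 were called lower, beside 38.0% of all tested. Several of these calls were fixed by the filter and the floor: miR-17, miR-18a and miR-20a were detected on no Dicer shRNA vehicle array and miR-19a on 1, and these 4 entered the fit only through the control shRNA vehicle group. miR-106b was detected on 2 of 3 Dicer shRNA vehicle arrays. Among those detected on all 6 vehicle arrays, the differences were -3.20 for miR-19b and -0.66 for miR-92a, -2.003 for miR-93 and -1.44 for miR-25, and -1.05 for miR-221 and -0.69 for miR-222. Of these calls, that of miR-221 changed under 4 of 27 other settings, that of miR-92a under 3 and those of miR-25 and miR-222 under 2 each. Under metformin, miR-92a (0.83), miR-25 (2.48, with 1 of the 3 control shRNA arrays above detection), miR-221 (2.33) and miR-222 (2.05) were called higher in Dicer shRNA cells, beside 13.9% of all tested. miR-17, miR-18a, miR-19a, miR-20a and miR-106b were detected in neither line on the metformin arrays, so no difference could be measured for them. For metformin in control shRNA cells all 11 were called lower, beside 40.4% of all tested, but 7 of them were detected on no metformin array and miR-25 on 1. The other 3 differed by -2.12 (miR-92a), -4.37 (miR-221) and -3.52 (miR-222). In Dicer shRNA cells 6 were called lower with metformin, beside 18.3% of all tested, namely miR-19b, miR-92a, miR-93, miR-25, miR-221 and miR-222. The calls of miR-93 and miR-19b rest on the floor, with detection on 1 and 2 of the 3 metformin arrays. Under the 27 other settings the call changed in 14 for miR-221, 5 for miR-92a, 3 for miR-25, and 1 each for miR-19b and miR-222. Of the remaining 5, miR-17, miR-18a and miR-20a were detected in neither group, miR-19a on 1 vehicle array and miR-106b on 2, so the floor left little or nothing to call. The direction of miR-92a flipped under 1 other setting in each of the 4 comparisons (to 0.096, -0.89, 1.28 and 0.29), and that of miR-222 flipped for Dicer shRNA under vehicle (to at most 0.13) and for metformin in Dicer shRNA cells (to 0.14). No difference between clusters was tested, and whether other loci also encode these strands was not examined.

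**Figure D5:**
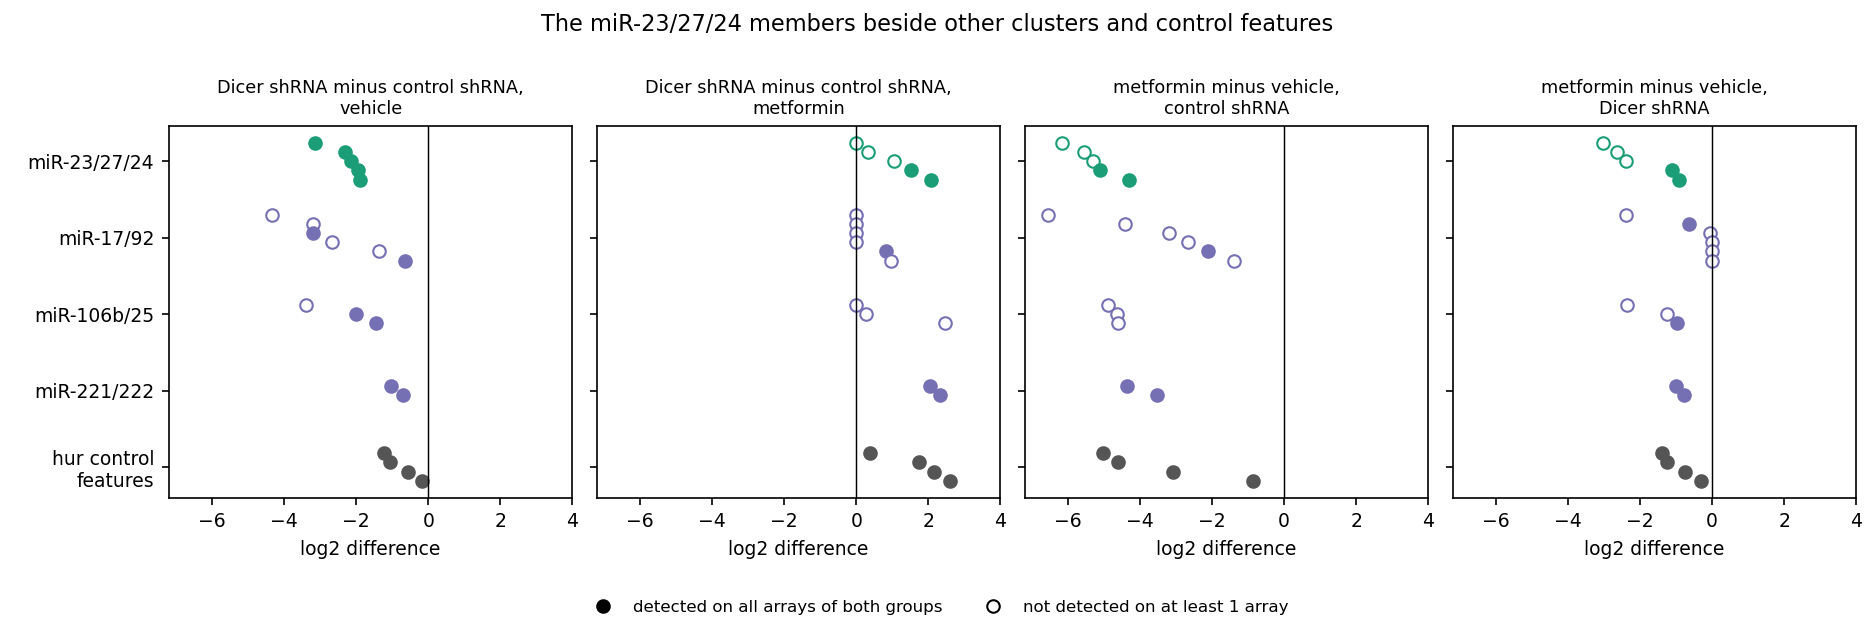
Log2 differences of the miR-23/27/24 members, of 3 other microRNA clusters and of the 4 hur control features in the 4 comparisons, with 1 point per microRNA or feature; open points were not detected on at least 1 array. The hur features lie on the same side of 0 as the called members in each panel, with medians of -0.81, 1.95, -3.84 and -0.999.

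Across the 12 arrays, the microRNAs whose log2 values were most like those of each member were found by Pearson's r among the 203 other tested microRNAs. For miR-24 they were miR-21 (r = 0.996), miR-92a (0.991) and miR-25 (0.989), and for miR-23a miR-21 (0.992), miR-320d (0.986) and let-7c (0.985). For miR-27a they were miR-125a-5p (0.998), miR-26a (0.995) and miR-15b (0.991), for miR-27b miR-15b (0.9996), miR-93 (0.999) and miR-125a-5p (0.992), and for miR-23b miR-199a-5p (0.994), miR-146a (0.990) and miR-19b (0.989). Among the 96 other microRNAs detected on all arrays, those most like miR-24 were miR-21, miR-92a and miR-320d (0.985). Between members r ran from 0.909 (miR-27a with miR-24) to 0.991 (miR-23a with miR-24 and miR-27a with miR-27b). The points share the groups, the slides and, for the dimmer members, the floor, so these values describe likeness of pattern and nothing more.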

How the data were processed

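The 12 total RNA samples of SUM159 cells, 3 in each of 4 groups, carried Cy3 label and were run on Agilent microRNA arrays with 1 colour, per the labels. The labelling kit that the labels name is one for amplifying messenger RNA, so how the microRNAs were labelled is not settled here. Agilent Feature Extraction 9.1 made the array files, per the submitters' processing notes. The deposited array files hold 1 total gene signal intensity per name, its error and a detection flag, not normalized between arrays, with 0.1 for undetected names. The authors' series matrix holds log2 values of the same arrays with column medians of 3.19 to 4.06. They run in the direction of the signals, and their scaling is not given in the sources used here. They served as an alternative only.

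Arrays were scaled by their 75th percentile, taken over 98 human microRNAs with detection on 12 of 12 arrays, relative to the geometric mean over arrays (factors 0.869 to 1.20). Undetected and dimmer values were set to 3.01, the median of the 12 arrays' 5th percentiles of detected signal, and log2 was taken. The 208 human microRNAs with 3 of 3 arrays detected in some group were fitted in R 4.3.3 with limma 3.58.1 (lmFit, eBayes) as 4 group means on 12 arrays (8 residual and 1.85 prior degrees of freedom), with Benjamini-Hochberg adjustment over all 208 in each comparison. Differences between pairs of members were tested by exact permutation over arrays. The fit was tested on simulated data. The simulation applied no floor and placed changes only among the brighter microRNAs, so it does not cover members at the floor. No replicate pair had identical values, and replicates correlated at 0.961 to 0.993. The number of arrays limits the precision. Pearson's r over arrays gave the nearest patterns: the 3 tested microRNAs with the highest r for each member.

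The 5 members were named by rule. The comparison lists were the passenger strands, genome neighbours, miR-128 and the miR-17/92, miR-106b/25 and miR-221/222 clusters, and the marker lists were epithelial, blood, muscle, liver and neural. Members and lists were chosen with earlier results of these data known. Array names carry no arm and were matched to the RefSeq 3p strands. The alternatives covered scaling, floor, filter, weights, variance trend, samples in the fit, a replicate block, the series matrix and leaving out each array.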

Additional observations from a re-analysis of the deposited data

Results flagged for a closer look

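The change with Dicer shRNA differed between the metformin slide and the vehicle slide for miR-23a and miR-24, by limma's interaction test (adjusted p 2.2e-07 and 5.0e-06). The difference was 4.01 log2 units for miR-24 and 3.40 for miR-23a. The fitted 3.19 for miR-23b and 2.65 for miR-27b were also called (adjusted p up to 0.00045) but depend on arrays at the floor. Neither was detected on a control shRNA metformin array. Without the 1 metformin array that detected miR-27b, its value was 2.32, its vehicle difference with the sign turned. The fitted 3.15 for miR-27a is its vehicle difference with the sign turned, since it was detected on no metformin array, and shows no difference between slides. In the scaling used, miR-23a and miR-24 were higher with Dicer shRNA on the metformin arrays and lower with it on the vehicle arrays. With scaling to the hur features, whose nature is not given in the sources used here, the difference under metformin was -0.21 for miR-23a (limma adjusted p = 0.247) and 0.35 for miR-24 (adjusted p = 0.067), so neither call held and the turn of sign was lost for miR-23a. Over all tested microRNAs, 76.4% were called in this interaction. The hur control features had a median interaction of 2.84 in the same direction. Metformin and slide cannot be told apart.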

How the results depend on the processing

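Of the results recomputed under the alternatives, 839 were classed as unchanged, 12 reversed, 10 lost and 5 gained a call, and 10 were counts of calls that moved by over 1.5 times. Unchanged means the same direction and side of the threshold for a difference, and a move of at most 1.5 times for a count. The 839 include pairs of members, whose test could not pass the threshold. They also include miR-27a for Dicer shRNA under metformin, fixed at 0 by the floor. The counts that moved so far were those of Dicer shRNA under metformin, 81 in the main setting (29 higher, 52 lower), which became 129 with median scaling (23 higher, 106 lower), 52 with viral scaling (28 and 24), 151 with hur scaling, added after seeing the data (13 and 138), and 126 with array weights. They were also those of metformin in Dicer shRNA cells, 51 in the main setting (13 higher, 38 lower), which became 100 with hur scaling (87 and 13), 24 with no filter, 82 with array weights and 19 with only the compared groups' arrays. The array weights were estimated without full convergence. Leaving out 1 array gave 113 to 130 calls for Dicer shRNA under vehicle, 62 to 101 under metformin, 175 to 189 for metformin in control shRNA cells, 143 to 165 for the interaction and 32 to 72 for metformin in Dicer shRNA cells, the last with 32 without Dicer shRNA metformin replicate 3 and 33 without Dicer shRNA vehicle replicate 2. Scaling also moved the split of calls: Dicer shRNA under vehicle had 45 higher and 79 lower in the main setting, 62 and 49 with quantile normalization, 32 and 90 with median scaling, 4 and 128 with viral scaling and 67 and 39 with hur scaling. Metformin in control shRNA cells had 99 higher and 84 lower, 44 and 117 with viral scaling and 139 and 45 with hur scaling. Metformin in Dicer shRNA cells had 25 and 20 with quantile normalization, 15 and 24 with viral scaling, 6 and 44 with no scaling and 43 and 19 with the series matrix. The interaction had 77 higher and 82 lower, 114 and 21 with viral scaling and 40 and 137 with hur scaling. The median of the 98 microRNAs detected on all arrays shifted under hur scaling by 0.75, -1.72, 3.39, 0.92 and -2.47 in the 5 comparisons, and under viral scaling by -1.20, 0.34, -1.55, -0.02 and 1.53. Reversed differences in change were, for miR-23b against miR-24, 0.74 (quantile), 0.11 (offset of 16) and 0.13 (series matrix), for miR-27b against miR-24, 0.56, 0.078 and 0.043, and for miR-23a against miR-23b, -0.31, -0.052 and -0.035. Leaving out 1 array gave -0.017 to 0.14 for miR-23a against miR-24. With hur scaling, miR-23a reversed to -0.21 for Dicer shRNA under metformin and to 0.0033 for metformin in Dicer shRNA cells. The cause was not tested. Whether same-numbered replicates were paired was not tested: their deviations correlated at -0.27 to 0.69, over 0.1 in 9 of 18 pairs. A replicate block gave 124, 83, 182, 47 and 159 calls in the 5 comparisons and changed no member's call. Dim members are limited by the floor: with signals near 6 units the scanner error reached 29.4%.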
